A study of Mus musculus with 6 samples.

Results

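The interferon-inducible GTPases examined here are 10 genes chosen by name, all of which are among the 3733 genes of the deposited expression table: Irgm1, Irgm2, Igtp, Tgtp1, Tgtp2 and Iigp1 of the immunity-related GTPase (IRG) family, and Gbp2, Gbp3, Gbp5 and Gbp7 of the guanylate-binding protein (GBP) family. Total RNA of mouse hippocampus was sequenced in 6 libraries, 2 each of PIA+IL-27, PIA and Control. The letters PIA stand for postnatal immune activation, which the design text gives as LPS, that is bacterial lipopolysaccharide, and the first group received recombinant IL-27 in addition. Strain, genotype, age, sex, dose and interval are not stated in the labels, and neither is whether a library came from 1 animal. The p-values therefore cover the spread between these libraries, which may be technical. In bulk tissue, fewer cells of a type and less RNA per cell cannot be told apart.

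IRG and GBP proteins are made by most cell types after exposure to interferons, above all interferon gamma, and act inside the cell against microbes that live in vacuoles. IRG proteins fall into regulators that sit on host membranes (Irgm1, Irgm2 and Igtp) and effectors that load onto the vacuole of the microbe (Tgtp1, Tgtp2 and Iigp1), while GBP proteins assemble on vacuoles and bacteria and help to set off inflammasomes. Promoter elements known for interferon responses are the gamma-activated site (GAS) and the interferon-stimulated response element (ISRE), which interferon regulatory factors bind. IL-27 is a cytokine that can either raise or restrain inflammation.

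Promoter windows of RefSeq (GRCm38.p6, 250 bases before to 50 after the annotated start) were matched for 9 of the 10 genes, all but Iigp1, and are shown because most of these genes shared an expression pattern. The search, on both strands, was for the ISRE core, spelled GAAA, then 2 bases of any kind, then GAAA, and for the GAS, spelled TTCNNNGAA; no GAS match in the members' windows overlapped an ISRE match. The ISRE core was in all 9 matched genes (9 of their 10 windows, since Gbp3 has 2) and a GAS in 6 of 9 (6 of 10 windows), against 3.99% and 9.55% of the 27025 genes of the table, or 3.44% and 8.30% of its 32851 windows. In the 60-base stretches below, written 5′ to 3′ on the gene's strand, capitals mark the matches to either motif.
Igtp (chr11:58199497-58199556, + strand): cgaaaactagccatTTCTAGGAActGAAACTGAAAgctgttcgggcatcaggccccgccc
Irgm2 (chr11:58214888-58214947, + strand): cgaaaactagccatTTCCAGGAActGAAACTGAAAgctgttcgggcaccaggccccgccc
Tgtp1 (chr11:48992289-48992348, - strand): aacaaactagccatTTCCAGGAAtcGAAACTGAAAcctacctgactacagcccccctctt
Tgtp2 (chr11:49064248-49064307, - strand): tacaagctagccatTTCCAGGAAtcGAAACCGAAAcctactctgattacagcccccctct
Irgm1 (chr11:48871410-48871469, - strand): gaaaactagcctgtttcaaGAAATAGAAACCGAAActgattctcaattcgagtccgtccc
Gbp2 (chr3:142620579-142620638, + strand): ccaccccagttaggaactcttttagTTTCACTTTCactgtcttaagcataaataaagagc
Gbp7 (chr3:142530258-142530317, + strand): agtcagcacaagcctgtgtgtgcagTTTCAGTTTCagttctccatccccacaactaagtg

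The first 4 of these, from IRG genes, had the same layout, a GAS followed after 2 bases by the ISRE core. Igtp and Irgm2 shared 58 of the 60 letters and are neighbouring genes in the RefSeq table. In Irgm1 the capitals are a pair of overlapping ISRE matches with no GAS in the window. In the GBP genes the ISRE core lay on the opposite strand, and Gbp7 also held 2 GAS matches further from the start, outside the stretch shown. Gbp5, Gbp7 and Gbp3 follow each other without another gene between them on chromosome 3. Of the listed genes other than the 10, 2894 had a window, and 5.46% of them held the ISRE core, as did 3 of 5 further interferon-inducible GTPases and 9 of 14 type I interferon response genes. It was in 2 of 12 MHC class I and immunoproteasome genes and 1 of 2 interferon gamma chemokines. Among interferon gamma signalling genes 0 of 4 held it, and 0 of 6 inflammasome, 0 of 2 IL-27 and 0 of 2 vacuole and autophagy genes. A match is a description of letters and not evidence of binding.

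**Figure D1:**
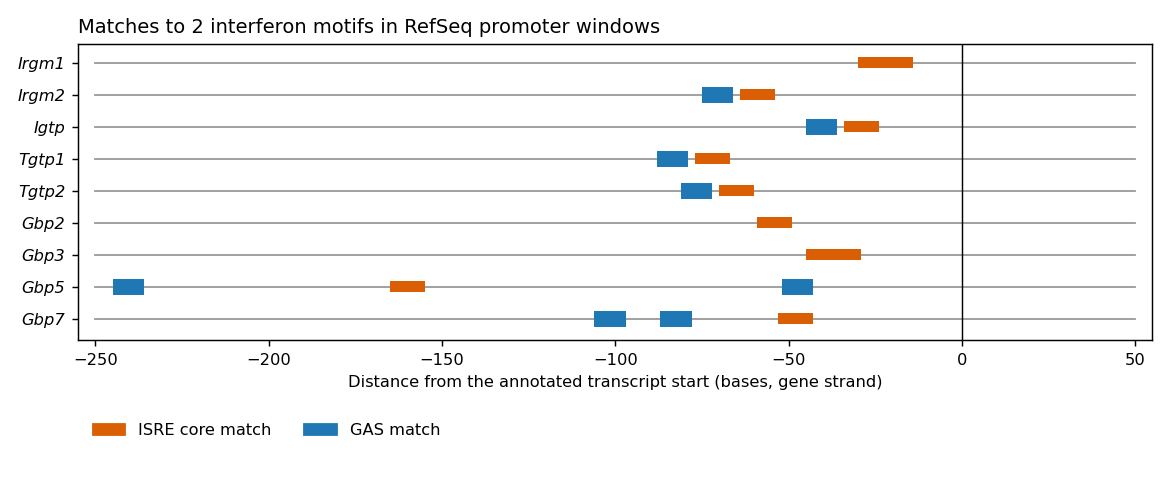
Matches to the ISRE core (orange) and the GAS (blue) along the promoter windows of 9 genes, by distance in bases from the annotated transcript start on the gene's strand. Irgm2, Igtp, Tgtp1 and Tgtp2 share a GAS and an ISRE core 2 bases apart, and Gbp3 has a further window with no match that is not drawn separately.

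Every listed gene meets, in 1 or more of the authors' comparisons, a Q value of at most 0.05 together with a log2 fold change of 1 or beyond in either direction, so the table was selected on these libraries. Reads in listed genes numbered 641672 to 1593441 per library and made up 2.14 to 5.61% of the transcripts, as TPM. The 10 genes had 4.49 to 650.0 estimated reads per library, and Tgtp1 and Tgtp2, near-identical copies, had non-whole counts, so their separate levels are uncertain. Libraries stood apart within groups. Summed neocortical markers (4 of 6 listed) were highest in PIA+IL-27 1 (29426 normalized reads) and PIA 2 (10706), where summed dentate granule cell markers (3 of 6 listed) were lowest (209.6 and 141). Summed choroid plexus markers (12 of 12 listed) reached 62285 in Control 2 and 12065 in PIA 1, against 259 to 918 in the other libraries. Summed Y-linked genes (4 of 4 listed) were at 1476 in PIA+IL-27 1 and at 541 and 594 in PIA, against 6.80 in PIA+IL-27 2 and 2.94 and 9.52 in Control. The part of these differences in the results was not tested. Y-linked reads were high in both PIA and low in both Control libraries. Sex, as read from these genes, therefore cannot be told apart from the treatment in that comparison. By the edgeR test used below, these 4 genes were among the 5 called higher in PIA against Control. They were also among the 6 called higher in PIA+IL-27 against Control.

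In PIA against Control, the question was what immune activation left in the hippocampus. For 9 of the 10 GTPase genes each PIA library exceeded each Control library in normalized reads. Of the 3733 listed genes, 17.2% lay above in this way and 16.5% below. The 10 summed to 2268 and 2501 normalized reads in PIA, against 790.4 and 277 in Control. Their median log2 fold change was 2.09, beside -0.68 for all 3216 genes tested. It was 3.13 without Control 1 and 1.47 without Control 2. With TMM factors computed over the listed genes, the median of all genes moved to -0.00035, and that of the 10 was 2.21. No single member passed: edgeR's quasi-likelihood test with Benjamini-Hochberg adjustment over all tested genes called 0 of 10 (0.218% of tested genes were called), DESeq2 and limma also called 0, and 7 had an unadjusted p under 0.05 in edgeR and in DESeq2, always with more reads in PIA, where 3.05% of all genes tested were higher and 3.23% lower at that p in edgeR. In edgeR the 7 became 2 with TMM factors, where 117 of 3243 genes tested had an unadjusted p under 0.05, and 2 with median-of-ratios factors (111 of 3243). The count was 4 with only the 4 libraries compared, where 134 of 2987 genes tested were under that p. An exact permutation test of 2 libraries against 2 cannot go below p = 0.333.

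The regulators Irgm1, Irgm2 and Igtp all separated. Irgm1, which guards the membranes of the host cell and takes part in autophagy, had 544 and 504 normalized reads in PIA, against 178 and 62.8 in Control. Irgm2 had 229 and 301 in PIA, against 102 and 28.6 in Control. Igtp, also called Irgm3 and located at the endoplasmic reticulum and lipid droplets, had 287 and 709 in PIA, against 116 and 17.1 in Control. The PIA libraries of Irgm1 were close to each other, whereas those of Igtp differed 2.47-fold and its Control libraries 6.74-fold. The log2 fold changes in edgeR were 2.12 ± 0.900 for Irgm1, 2.02 ± 0.958 for Irgm2 and 2.91 ± 0.958 for Igtp (SE, n = 2 per group), with adjusted p of 0.617, 0.617 and 0.278. Igtp was at 4.85 without Control 1 and at 2.11 without Control 2, and the other regulators moved in the same direction, Irgm1 to 3.06 and 1.55 and Irgm2 to 3.21 and 1.38.

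Among the effectors, Tgtp2 had 74.0 and 149 normalized reads in PIA, against 11.8 and 4.76 in Control. Its near-identical copy Tgtp1 had 131 and 119 in PIA, against 29.4 and 13.3 in Control. Iigp1, which can load onto the Toxoplasma vacuole, had 75.9 and 106 in PIA, against 13.7 and 13.3 in Control. Iigp1 was thus the member whose Control libraries lay closest, and none of the 3 overlapped between groups. Tgtp2 was at a log2 fold change of 3.82 ± 1.14 (adjusted p = 0.158, edgeR), which is 14.1-fold and the highest of the 10 with all libraries in edgeR, but it was at 1.96, below Igtp, Gbp2 and Irgm1, with limma on log2(TPM + 1), and just below Igtp without Control 1. Tgtp1 was at 2.57 ± 1.03 (adjusted p = 0.617) and Iigp1 at 2.74 ± 1.07 (adjusted p = 0.551). Tgtp1 and Tgtp2 summed, a check added after the data were seen, had 205 and 268 in PIA, against 41.1 and 18.1 in Control, with a log2 fold change of 3.03 ± 1.02 (adjusted p = 0.283). The fold change of Iigp1 stayed within 2.48 and 2.96 whichever library was left out, and that of Tgtp2 within 3.23 and 4.82.

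The median log2 fold change was 2.65 over the 6 IRG genes and 1.43 over the 4 GBP genes, and the GBP genes divided. Gbp2, which is recruited to Toxoplasma vacuoles and bacteria, had 590.0 and 420.0 normalized reads in PIA, against 199.8 and 40.9 in Control. Gbp5, which in mouse macrophages promotes inflammasome assembly, had 148 and 51.3 in PIA, against 46.0 and 16.2 in Control. Gbp3 had 163 and 91.6 in PIA, against 74.4 and 38.1 in Control. These groups did not overlap, though the lower PIA library of Gbp5 and of Gbp3 was near the higher Control library. The log2 fold changes were 2.07 ± 0.919 for Gbp2, 1.68 ± 1.01 for Gbp5 and 1.18 ± 0.956 for Gbp3 (adjusted p = 0.617 for each, edgeR). Without PIA 1 they were 1.80, 0.72 and 0.70, without Control 1 3.62, 2.61 and 1.74, and without Control 2 1.34, 1.11 and 0.78. Gbp7, linked in mouse macrophages to the oxidative burst, was the exception, with 25.9 and 49.1 in PIA, against 19.6 and 41.9 in Control. Its groups overlapped, its log2 fold change was 0.28 ± 1.0 (adjusted p = 0.817), and the sign turned without Control 1 (-0.16) and without PIA 2 (-0.24). The promoter window of Gbp7 held the ISRE core, as those of the other 8 matched genes did.

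**Figure D2:**
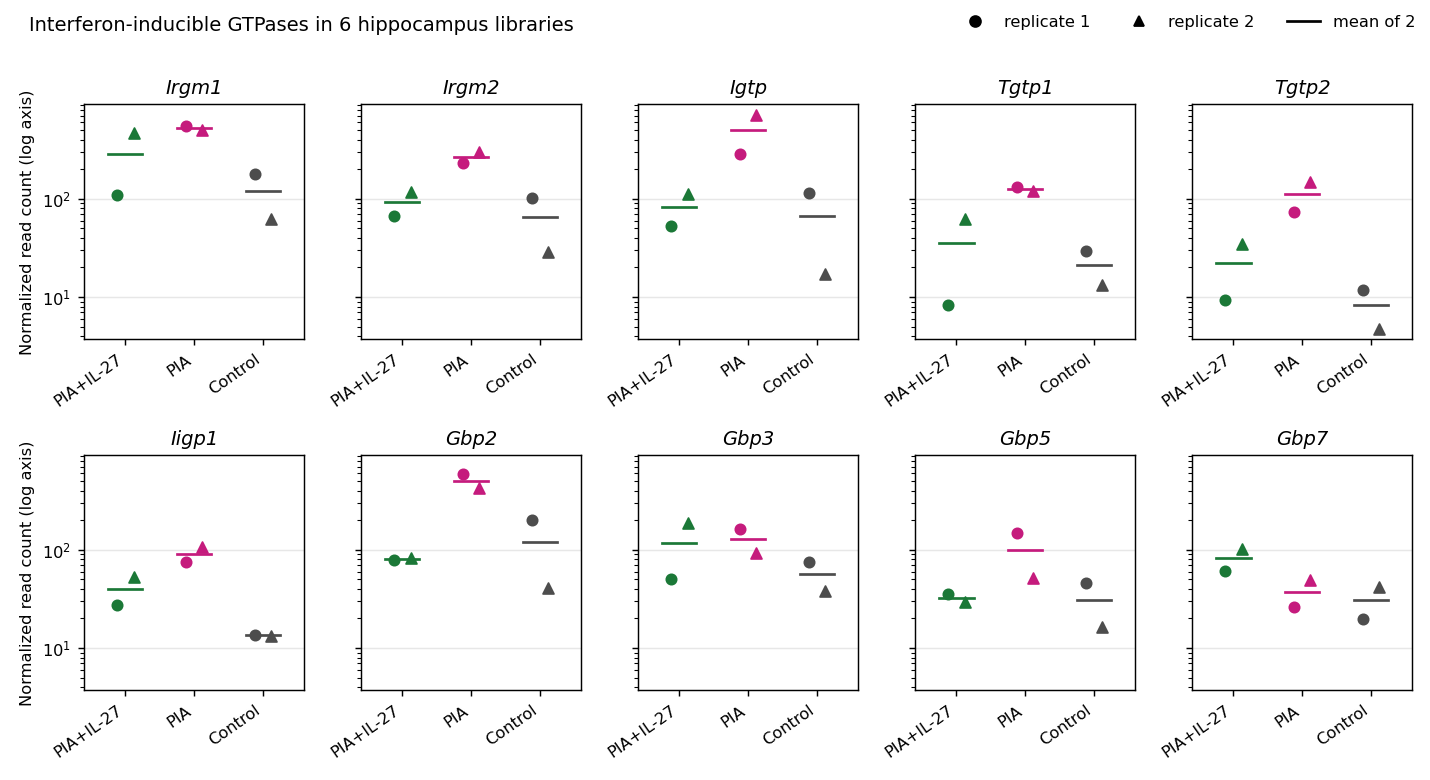
Normalized read count (log axis) of the 10 genes in the PIA+IL-27, PIA and Control groups; circles are replicate 1, triangles replicate 2 and bars the mean of 2. In 9 genes both PIA libraries lie above both Control libraries, whereas Gbp7 is highest in PIA+IL-27, at 60.5 and 103 reads.

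In PIA+IL-27 against PIA, which asks what the cytokine did on top of immune activation, 8 of the 10 genes had fewer normalized reads in each PIA+IL-27 library than in each PIA library. Across the listed genes 16.5% lay below in this way and 57.1% lay above. The 10 summed to 497 and 1241 normalized reads in PIA+IL-27, against 2268 and 2501 in PIA. This comparison shares its PIA libraries with the previous one, and no relation between them was tested. The median log2 fold change was -1.58, beside 1.17 for all genes tested, -1.10 without PIA+IL-27 1 and -2.13 without PIA+IL-27 2. With TMM factors the median of all genes moved to -0.04 and that of the 10 to -2.755. In edgeR 0 of 10 passed (0.435% of tested genes were called), 3 had an unadjusted p under 0.05, all lower (4.35% of all genes tested were lower and 14.4% higher at that p), limma called 0, and DESeq2 called 0 of the 5 members to which it gave an adjusted p, having left Tgtp1, Tgtp2, Iigp1, Gbp5 and Gbp7 without one. In edgeR the 3 became 6 with TMM factors, where 591 of 3243 genes tested had an unadjusted p under 0.05, and 6 with median-of-ratios factors (579 of 3243). The count was 5 with only the 4 libraries compared, where 1561 of 3006 genes tested were under that p. When the fit held only the 4 libraries compared, Gbp2 and Igtp passed, each with adjusted p = 0.0493 in edgeR. That fit called 449 of the 3006 genes tested, 414 higher and 35 lower. With no library left out, the highest adjusted p of both genes over the other settings was 0.462, in edgeR with the replicate block.

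With all libraries, the authors' factors and no replicate block, Gbp2 had the largest difference in edgeR. With the block Igtp was at -2.58 and Gbp2 at -2.57. Without PIA 1 Igtp and Tgtp2 were at -3.09 and -2.73, against -2.38 for Gbp2. Without PIA+IL-27 2 Tgtp1, Tgtp2 and Igtp were at -4.07, -3.55 and -3.22, against -2.69 for Gbp2. Gbp2 had the tightest PIA+IL-27 pair, with 78.2 and 82.5 normalized reads in PIA+IL-27, against 590.0 and 420.0 in PIA. Its log2 fold change was -2.65 ± 0.941 (adjusted p = 0.231, edgeR), or 6.28-fold lower. Igtp had 53.2 and 113 with PIA+IL-27, against 287 and 709 in PIA (-2.58 ± 0.944, adjusted p = 0.233). In both genes every PIA+IL-27 library lay below every PIA library by more than 2-fold. Tgtp2 had 9.38 and 34.95 with PIA+IL-27, against 74.0 and 149 in PIA (-2.32 ± 1.05, adjusted p = 0.257). Tgtp1 had 8.34 and 62.1 with PIA+IL-27, against 131 and 119 in PIA (-1.85 ± 1.0, adjusted p = 0.265). The copies had a wide gap between the PIA+IL-27 libraries, 3.72-fold in Tgtp2 and 7.45-fold in Tgtp1, and their summed reads gave -2.06 ± 0.976 (adjusted p = 0.258). Without PIA+IL-27 1 the value of Tgtp1 was -1.02, and without PIA+IL-27 2 it was -4.07; those of Tgtp2 were -1.67 and -3.55.

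Gbp5, Irgm2 and Iigp1 separated with smaller differences. Gbp5 had 35.5 and 29.1 normalized reads in PIA+IL-27, against 148 and 51.3 in PIA (-1.62 ± 1.01, adjusted p = 0.292, edgeR), and was at -0.67 without PIA 1. Irgm2 had 66.7 and 117 with PIA+IL-27, against 229 and 301 in PIA (-1.53 ± 0.942, adjusted p = 0.290). Iigp1 had 27.1 and 53.4 with PIA+IL-27, against 75.9 and 106 in PIA (-1.17 ± 1.01, adjusted p = 0.348), and was at -0.77 without PIA+IL-27 1 and -1.74 without PIA+IL-27 2. Against Control, both PIA+IL-27 libraries lay between the Control libraries for Gbp5, the Irgm2 libraries lay on either side of Control 1, and those of Iigp1 lay above both Control libraries.

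In Irgm1 and Gbp3 the PIA+IL-27 libraries lay far apart. Irgm1 had 108 and 461 normalized reads in PIA+IL-27, against 544 and 504 in PIA, so PIA+IL-27 2 was near the PIA level and PIA+IL-27 1 below Control 1. Its log2 fold change was -0.88 ± 0.869 (adjusted p = 0.388), -0.18 without PIA+IL-27 1 and -2.27 without PIA+IL-27 2. Gbp3 had 50.1 and 185 with PIA+IL-27, against 163 and 91.6 in PIA, and its groups overlapped. Its log2 fold change was -0.11 ± 0.940 (adjusted p = 0.915), 0.54 without PIA+IL-27 1, 0.36 without PIA 1 and -1.35 without PIA+IL-27 2. Gbp7 had more reads with IL-27, 60.5 and 103 with PIA+IL-27 against 25.9 and 49.1 in PIA (1.12 ± 1.0, adjusted p = 0.354, edgeR). Of the 3216 genes tested, 2406 had a log2 fold change above 0, and 57.1% of listed genes separated upward as Gbp7 did. The value of Gbp7 turned to -0.12 with TMM factors and -0.10 with median-of-ratios factors.

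**Figure D3:**
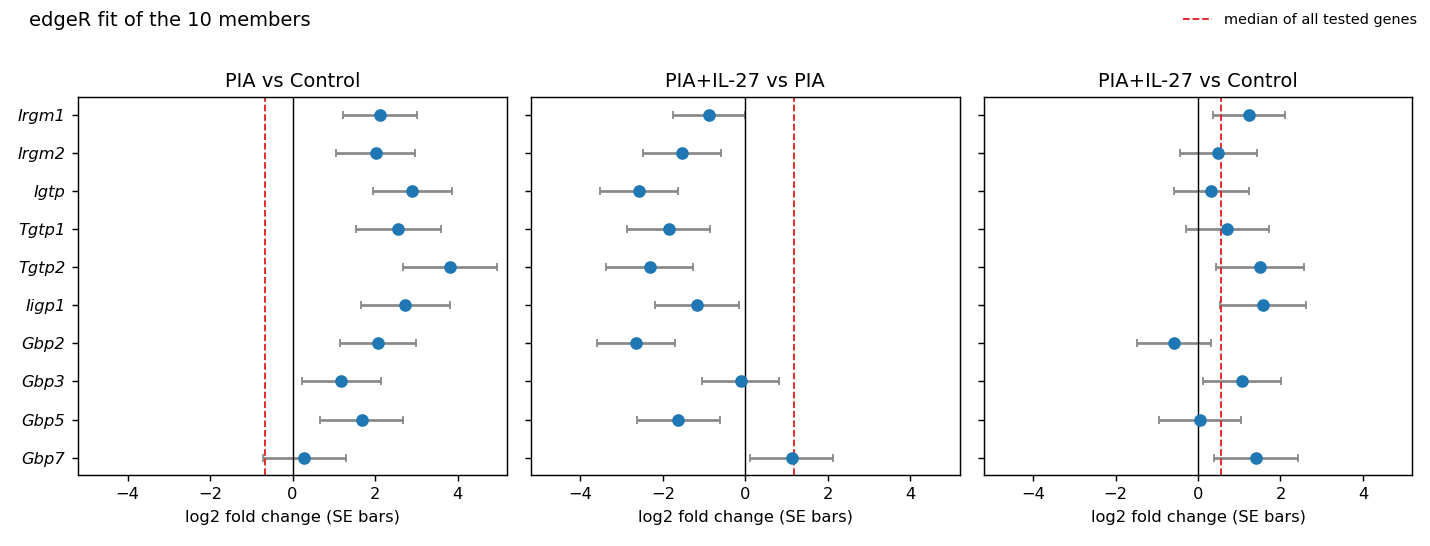
Log2 fold change with SE bars of the 10 genes in edgeR for PIA against Control, PIA+IL-27 against PIA and PIA+IL-27 against Control; the dashed line is the median of all 3216 tested genes. All 10 genes in the first panel and 9 in the second lie on the far side of 0 from the dashed line, Gbp7 having a value of 0.28 in the first and 1.12 in the second, and none passed an adjusted p of 0.05.

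PIA+IL-27 was also set against Control, with Control shared with the first comparison and PIA+IL-27 with the second. In 2 of the 10 genes, Iigp1 and Gbp7, the PIA+IL-27 libraries were clear of the Control libraries on the upper side, and in 0 on the lower, where 23% and 7.5% of listed genes were. Iigp1 had 27.1 and 53.4 normalized reads in PIA+IL-27, with Control at 13.7 and 13.3 (1.57 ± 1.04, adjusted p = 0.835, edgeR). Gbp7 had 60.5 and 103 in PIA+IL-27, with Control at 19.6 and 41.9 (1.41 ± 1.01, adjusted p = 0.835). The other 8 overlapped, with log2 fold changes between -0.58 (Gbp2) and 1.5 (Tgtp2). The median of the 10 was 0.89, beside 0.55 for all genes tested; it was 1.61 without Control 1, 1.63 without PIA+IL-27 1 and -0.06 without PIA+IL-27 2. With TMM factors it was -0.01, and the signs of Igtp, Gbp5, Irgm2 and Tgtp1 turned. In edgeR 0 of 10 passed (0.311% of tested genes were called) and 0 had an unadjusted p under 0.05 (1.65% of tested genes were higher and 1.21% lower at that p). DESeq2 and limma called 0. The intervals are wide, so the data do not show that IL-27 left these genes at the Control level.

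By the authors' deposited table, with a log2 of at least 1 and Q at most 0.05, 9 of the 10 genes were higher and 0 lower in PIA against Control, where 18.0% and 34.4% of listed genes were. By the authors' deposited table and the same rule, 7 were lower and Gbp7 higher in PIA+IL-27 against PIA, where 18.2% and 61.4% of listed genes were. For PIA+IL-27 against Control the authors' deposited table has 5 of the 10 as higher and 0 as lower, beside 13.3% and 8.57% of listed genes. The authors' test is not given in the sources used here, and the table was selected by it, so these calls carry no independent weight.

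Between the 2 Control libraries and between the 2 PIA+IL-27 libraries most GTPase genes lay on the other side from the median of the listed genes; in PIA they were split. Of the 10, 9 had more reads in Control 1 than in Control 2, the median of log2 (replicate 1 / replicate 2) being 1.30, while the median over all tested genes was -1.29. In PIA+IL-27, 9 of 10 had more reads in PIA+IL-27 2, with a median of -1.01, while that of all tested genes was 0.28. The exceptions were Gbp7 and Gbp5: Gbp7 was higher in Control 2, and Gbp5 was slightly higher in PIA+IL-27 1. In PIA, 5 of the 10 had more reads in PIA 1 and 5 in PIA 2, while the median of all tested genes was 0.35: 3 of the 4 GBP genes had more in PIA 1 (median 0.66) and 4 of the 6 IRG genes more in PIA 2 (median -0.43). The share of the summed reads that came from the 4 GBP genes was 40.9% in PIA 1 and 24.5% in PIA 2. The replicates differed over 2-fold in 5 of 10 genes in PIA+IL-27, 3 of 10 in PIA and 8 of 10 in Control, beside 30.2%, 30.3% and 73.2% of all tested genes in the same order.

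**Figure D4:**
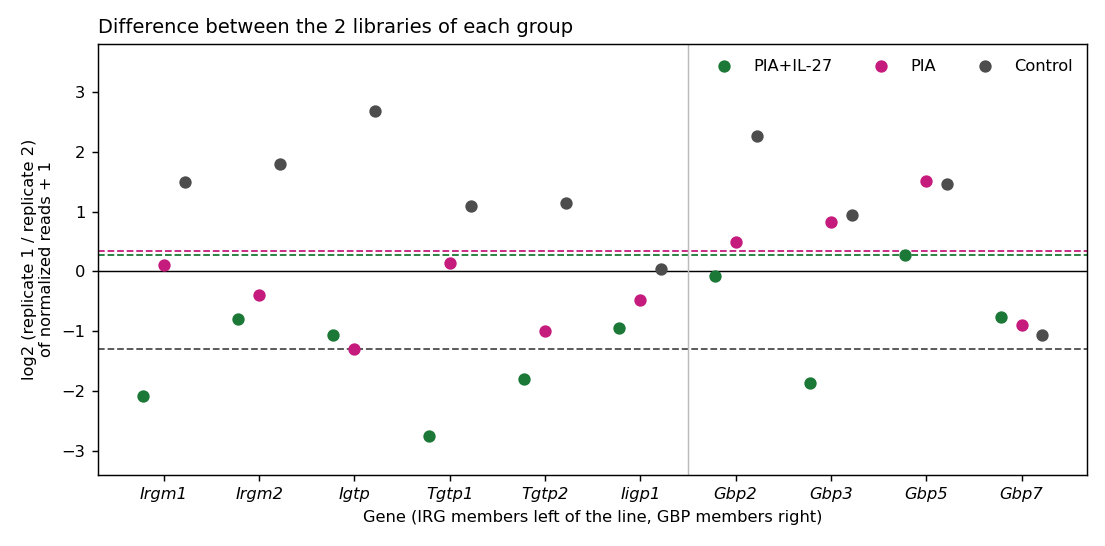
Log2 ratio of replicate 1 to replicate 2 (normalized reads + 1) for each gene in PIA+IL-27 (green), PIA (magenta) and Control (grey), with the median of all tested genes dashed in the same colour. Control points lie above 0 except for Gbp7, and PIA+IL-27 points lie below 0 except for Gbp5.

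Per transcript length, Irgm1, Igtp and Gbp2 were the most abundant of the 10 in PIA and in Control. In PIA, Igtp had 28.5 ± 16.4 TPM, Irgm1 28.4 ± 2.20 and Gbp2 23.3 ± 6.16 (mean ± SD, n = 2), and these 3 overlapped each other. Irgm2 followed at 8.10 ± 1.35 TPM, clear of Gbp2 above and of Gbp3 below. Gbp3 at 5.195 ± 2.16, Tgtp1 at 4.90 ± 0.453, Tgtp2 at 4.33 ± 1.97, Gbp5 at 3.65 ± 2.58 and Iigp1 at 3.23 ± 0.672 TPM each overlapped the next in order. Gbp7 was lowest in PIA at 0.690 ± 0.283 TPM, clear of Iigp1. In PIA+IL-27 the order ran from Irgm1 at 16.9 ± 14.9 TPM to Tgtp2 at 0.960 ± 0.806, with Gbp7 in the sixth place at 1.68 ± 0.651 TPM. In Control it ran from Irgm1 at 6.89 ± 4.04 TPM to Tgtp2 at 0.325 ± 0.177. Neighbours overlapped in both groups, except Irgm2 and Gbp7 in PIA+IL-27 and Iigp1 and Tgtp2 in Control.

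**Figure D5:**
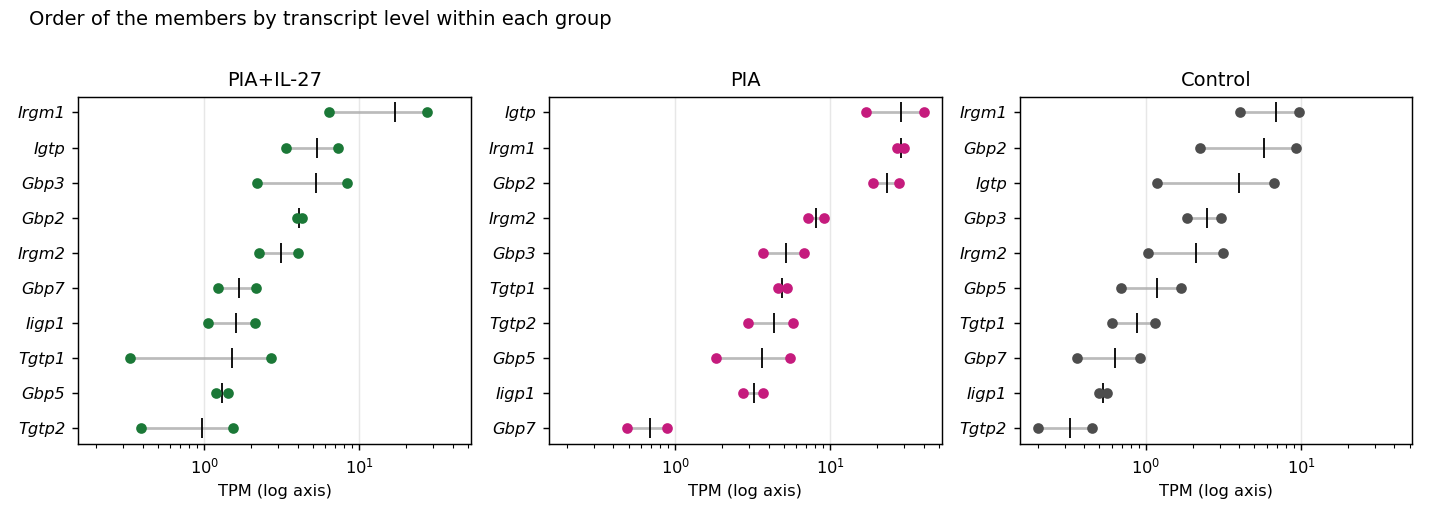
TPM (log axis) of the 10 genes in PIA+IL-27, PIA and Control, ordered by the group mean (black tick); dots are the 2 libraries. In PIA the 3 genes at the top range from 16.9 to 40.1 TPM and Gbp7 lies at the bottom, at 0.490 and 0.890 TPM.

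Over the 6 libraries, as a description, the log2 profile of each gene other than Gbp7 had a Pearson correlation of 0.724 (Gbp5) to 0.973 (Irgm2) with the mean of the other members, and that of Gbp7 was -0.081. Of 2645 other genes with a mean of at least 20 normalized reads, the 8 whose profile was most like the mean of the members were Muc1 (0.979), Ifi47 (0.978), Gm40814 (0.958), Dhx58 (0.942), Gbp10 (0.936), H2-T-ps (0.931), Uba7 (0.924) and Tap1 (0.915). Ifi47 and Gbp10 belong to the same GTPase families. Ifi47 had 38.6 and 72.8 normalized reads in PIA+IL-27, 141 and 187 in PIA, and 32.3 and 19.0 in Control.

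The wider families were represented by 13 of 29 further genes, of which 9 passed the filter on low counts and none passed the test in any comparison (edgeR; 3 had an unadjusted p under 0.05 in PIA against Control and 0 in the others). At that p 3.05% of all genes tested were higher in PIA against Control. PIA was clear of Control on the upper side in 7 of the 13, beside 17.2% of all listed genes. PIA+IL-27 was clear of PIA on the lower side in 5 and on the upper in 3, beside 16.5% and 57.1% of all listed genes. The median log2 fold changes of the 9 were 1.78 in PIA against Control and -0.53 in PIA+IL-27 against PIA. Gbp6 had 74.0 and 67.0 normalized reads in PIA+IL-27, 97.05 and 104 in PIA, and 20.6 and 19.996 in Control, so its PIA+IL-27 level stayed clear of Control (1.81 ± 1.01, adjusted p = 0.835). Gbp4 had 48.0 and 24.3 in PIA+IL-27, 59.6 and 146 in PIA, and 13.7 and 25.7 in Control. Gbp6 and Gbp10 lie in a cluster of near-identical genes, so reads may be shared among them. The IRG-related gene 9930111J21Rik1 went the other way, with 13.6 and 16.5 reads in PIA+IL-27 and 1.92 and 2.18 in PIA.

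Of 15 genes tied to interferon gamma signalling, some of them its targets, 8 were listed and tested. Ifng, Ifngr1, Ifngr2, Jak1 and Stat2 were among those not listed. In PIA against Control 7 of the 8 separated upward (median log2 fold change 1.72), beside 17.2% of all listed genes. In PIA+IL-27 against PIA 5 separated downward and 1 upward (-1.78), beside 16.5% and 57.1% of all listed genes. None passed in edgeR, and 4 had an unadjusted p under 0.05 in each comparison, higher in the first and lower in the second. At that p 3.05% of all genes tested were higher in the first and 4.35% lower in the second. Nlrc5, which switches on MHC class I transcription, had 32.3 and 42.7 normalized reads in PIA+IL-27, 90.3 and 439.7 in PIA, and 38.2 and 12.4 in Control. Irf1, which binds the ISRE, had 149 and 113 in PIA+IL-27, 307 and 847 in PIA, and 198 and 84.7 in Control. Batf2, a transcription factor induced by interferon gamma, had 6.26 and 2.91 in PIA+IL-27, 21.1 and 50.2 in PIA, and 1.96 and 1.90 in Control. All 3 were higher in PIA 2 than in PIA 1, as Igtp, Irgm2, Tgtp2, Iigp1 and Gbp7 were. Gbp2, Gbp3, Gbp5, Irgm1 and Tgtp1 were higher in PIA 1. Ciita, which switches on MHC class II transcription, was also higher in PIA 2 than in PIA 1. It had 12.5 and 12.6 reads in PIA+IL-27, 40.4 and 163 in PIA, and 23.5 and 6.67 in Control.

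Of the IL-27 pathway 3 of 7 genes were listed and 2 tested, with none passing in edgeR and 1 at an unadjusted p under 0.05, in PIA+IL-27 against PIA. At that p 4.35% of all genes tested were lower in that comparison. Socs3, the feedback inhibitor of STAT3 signalling, had 54.2 and 63.1 normalized reads in PIA+IL-27, against 368 and 143 in PIA (-2.12 ± 0.959, adjusted p = 0.257), and 180.2 and 79.0 in Control. Ebi3, a subunit of IL-27, had 83.4 and 46.6 in PIA+IL-27, 136 and 100.4 in PIA, and 69.5 and 31.4 in Control.

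Genes that work beside the GTPases gave the following counts in edgeR. Of 15 inflammasome and pyroptosis genes 8 were listed and 7 tested. In PIA against Control 6 of the 8 separated upward (median 1.17), and in PIA+IL-27 against PIA 6 separated downward (-1.41). Of all listed genes 17.2% and 16.5% separated in these ways. None passed, and 1 and 2 had an unadjusted p under 0.05. At that p 3.05% of all genes tested were higher in the first comparison and 4.35% lower in the second. Zbp1, an interferon-induced nucleic acid sensor, had 15.6 and 30.1 normalized reads in PIA+IL-27, 107 and 85.1 in PIA, and 40.2 and 0 in Control, and Gsdmd, the pore-forming gasdermin, had 58.4 and 40.8, 104 and 160.4, and 82.3 and 35.2. Of 18 vacuole and autophagy partners only Tax1bp1 and Lgals3 were listed, and neither passed in edgeR (median log2 fold change -0.44 in PIA against Control and 0.41 for PIA+IL-27 against PIA, with 0 and 1 at an unadjusted p under 0.05). In PIA+IL-27 against PIA 14.4% of all genes tested were higher at that p. Tax1bp1, an autophagy receptor, had 1425 and 988 normalized reads in PIA+IL-27, 363 and 255 in PIA, and 242 and 1158 in Control.

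The values of other interferon targets stand beside those of the GTPases with no test between lists. Of MHC class I and immunoproteasome genes, 13 of 17 were listed and 12 tested. In PIA against Control 12 of the 13 separated upward (median 1.79), and in PIA+IL-27 against PIA 11 separated downward (-1.66). Of all listed genes 17.2% and 16.5% separated in these ways. None passed in edgeR, and 5 had an unadjusted p under 0.05 in each comparison. At that p 3.05% of all genes tested were higher in the first and 4.35% lower in the second. Of type I interferon response genes, 18 of 24 were listed. In PIA against Control 4 separated upward (median 1.24), beside 17.2% of all listed genes. In PIA+IL-27 against PIA 1 separated downward and 3 upward (0.24), beside 16.5% and 57.1% of all listed genes. None passed in edgeR, and 1 and 0 had an unadjusted p under 0.05. Ifit3, a translation inhibitor of that list, had 51.1 and 253 normalized reads in PIA+IL-27, 206 and 70.9 in PIA, and 45.1 and 16.2 in Control. As in Gbp3, PIA+IL-27 2 was above PIA+IL-27 1, and PIA 1 above PIA 2. Isg15, a ubiquitin-like modifier, had these directions between replicates too. It had 17.7 and 195 in PIA+IL-27, 270.0 and 96.0 in PIA, and 99.9 and 10.5 in Control, so its PIA and Control libraries overlapped. Ifit2, of the same list, had 201 and 224 in PIA+IL-27, 64.4 and 51.3 in PIA, and 35.3 and 131 in Control. Both PIA+IL-27 libraries of Ifit2 thus lay above both PIA libraries. Of the interferon gamma chemokines, 3 of 4 were listed, all 3 separated in both comparisons (medians 3.10 and -4.91), and Ccl5 and Cxcl10 fell in PIA+IL-27 against PIA with adjusted p of 0.00286 and 0.0174 in edgeR, though with TMM factors 0 genes of the table were called and 591 had an unadjusted p under 0.05. Ccl5, which attracts T cells, had 7.30 and 0 normalized reads in PIA+IL-27, 271 and 60.01 in PIA, and 49.95 and 0.952 in Control. Cxcl10, which attracts T and NK cells, had 7.30 and 7.77 in PIA+IL-27, 238 and 124 in PIA, and 39.2 and 2.86 in Control.

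Markers of other cell types are given as summed reads, with no test of the sums. Of 12 T and NK cell markers 6 were listed, and they summed to 12.5 and 4.85 normalized reads in PIA+IL-27, 83.6 and 31.6 in PIA, and 22.5 and 9.52 in Control. Like the GTPase sum, this sum was highest in the PIA libraries and higher in Control 1 than in Control 2, but it was higher in PIA+IL-27 1 and in PIA 1, where the GTPase sum was higher in PIA+IL-27 2 and in PIA 2. Klrb1c, an NK cell receptor, had 3.13 and 1.94 reads in PIA+IL-27, 38.4 and 7.64 in PIA, and 7.84 and 1.90 in Control, whereas the T cell gene Cd8a had 4.17 and 0.971 in PIA+IL-27, 0 and 1.09 in PIA, and 0 and 6.67 in Control. Nkg7 and Gzmb were each at 0 in 3 of the 6 libraries and at 4.36 reads or more in both PIA libraries. Neutrophil and monocyte markers (9 of 11 listed) summed to 117 and 73.8 in PIA+IL-27, 1663 and 112 in PIA, and 479.9 and 32.4 in Control. Microglial markers (4 of 10 listed) summed to 857 and 467, 1183 and 634, and 824 and 519 in the same order, and endothelial markers (2 of 9 listed) to 205 and 304, 578 and 208, and 344 and 367, with PIA overlapping both other groups for microglia and endothelium. These 2 sums mix directions. In PIA against Control, 3 of the 4 microglial genes were lower and 1 higher in edgeR (log2 fold changes from -1.90 to 0.90). The 2 endothelial genes were at -1.11 and 0.56. The sums of all 4 cell types were higher in PIA 1 than in PIA 2, as were Gbp2, Gbp3, Gbp5, Irgm1 and Tgtp1, whereas Igtp, Irgm2, Tgtp2, Iigp1 and Gbp7 were higher in PIA 2. Of all 3216 genes tested, 2120 were higher in PIA 1 and 1091 in PIA 2. Astrocyte, neuron and meningeal fibroblast sums were also higher in PIA 1, and oligodendrocyte and neocortical sums in PIA 2. The part of these cell types in the GTPase levels was not tested.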

How the data were processed

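The members and gene lists were chosen with earlier results of these data known. Estimated counts, TPM and FPKM per gene and library were deposited by the authors, per the file headers; aligner, genome build and strandedness: not given in the sources used here. The normalized reads, a signal deposited by the authors, equal the rounded-up count over 1 factor per library (0.917 to 1.05; 100% of values within a tolerance of 1e-06). The log2 fold changes and Q values of the authors were used only where named; 51 further columns (means and comparisons of single libraries) were not used. Columns were joined to samples by the library names in the labels.

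Expected counts, deposited by the authors, were rounded and fitted in edgeR 4.0.16 (R 4.3.3; quasi-likelihood, filterByExpr, all 6 libraries, the authors' factors), with Benjamini-Hochberg adjustment over 3216 genes and a threshold of 0.05. All 10 members passed the filter. The SE is the absolute log2 fold change divided by the square root of F. The common coefficient of variation was 0.597, and the prior degrees of freedom were infinite, so the spread was shared by all genes. Alternatives were TMM factors, median-of-ratios factors, an unfiltered fit, a replicate block, only the compared libraries, DESeq2 1.42.0, limma 3.58.1 on log2 TPM with 1 or 0.1 added, a robust spread, each library left out, and FPKM for the order of levels. Outside the members, up to 4 genes per list were picked by smallest p, and not all of these were named. Genes and markers named beyond these were chosen after their values were seen. Counts limit the precision of low genes.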

Additional observations from a re-analysis of the deposited data

How the results depend on the processing

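No alternative called a member in PIA against Control or in PIA+IL-27 against Control; in PIA+IL-27 against PIA only the fit of the 4 libraries compared did (Gbp2 -2.65 and Igtp -2.58, adjusted p = 0.0493 each). The causes of the changes below were not tested. Genes called among all tested, 7, 14 and 10 in PIA against Control, PIA+IL-27 against PIA and PIA+IL-27 against Control, were 0, 0 and 0 in edgeR with TMM factors (117, 591 and 118 at an unadjusted p under 0.05) and with median-of-ratios factors (111, 579 and 110), 3, 4 and 3 with the replicate block, and 2, 4 and 1 in DESeq2. A robust spread gave 4 and 8 in the first 2 comparisons, the fit of the compared libraries 449 in the second and 1 in the third, limma on log2(TPM + 1) 2 in the third, and limma on log2(TPM + 0.1) 12 in the first and 5 in the third. Leaving out 1 library gave 0 to 7 in each comparison; edgeR called 0 without Control 1 or Control 2 in all 3 (1264 and 46, 1602 and 1589, 109 and 1193 genes at an unadjusted p under 0.05) and without PIA 1 in the second (92). The members' median ran from 1.47 to 3.13, from -2.13 to -1.10 and from -0.059 to 1.63 with 1 library left out. TMM and median-of-ratios factors moved it to -2.755 and -2.73 in the second comparison and to -0.011 and -0.034 in the third. Signs turned with these factors for Gbp7 in the second (-0.12 and -0.10) and, in the third, for Igtp (-0.82 and -0.83), Gbp5 (-1.025 and -1.01), Irgm2 (-0.59 and -0.59) and Tgtp1 (-0.17 and -0.20). With 1 library left out, values crossed 0 for Gbp7 in the first (-0.24 to 0.93), Gbp3 in the second (-1.35 to 0.54) and, in the third, Gbp2 (-1.31 to 0.97), Igtp (-0.48 to 2.27), Gbp5 (-0.51 to 0.99), Irgm2 (-0.15 to 1.68), Gbp3 (-0.17 to 1.72), Irgm1 (-0.15 to 2.18) and Tgtp1 (-1.50 to 1.55). The lone library of a group was assumed to vary like the others.

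The replicate numbers are not stated to pair libraries, and replicate deviations correlated across genes at 0.147 between Control and PIA, 0.0597 between Control and PIA+IL-27 and -0.261 between PIA and PIA+IL-27. Exchanging the PIA numbers in the block, tried after the data were seen, gave 13 calls in the second comparison. The members' median with the replicate block was 2.20, -1.46 and 0.82, and no call of a member changed with it. In that edgeR fit 5, 3 and 0 members had an unadjusted p under 0.05, beside 111, 283 and 49 of all 3216 genes tested. FPKM in place of TPM kept 28 of 30 places in the order of levels.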
